A study of Mus musculus with 16 samples.

Results

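The levels of 10 circadian clock genes were followed in 16 mRNA sequencing libraries of mouse brain. The genes are Arntl and Npas2, which form the positive limb of the clock, the repressors Per1, Per2, Per3, Nr1d1 and Nr1d2, and Dbp, Tef and Ciart, which are grouped here as other outputs. They were chosen by name, as the rows whose Ensembl ID maps to these symbols, with earlier results of these data known. Counts of called genes among them, set beside the share over all genes, are therefore descriptions. All 10 were found among the 38924 gene rows, and all 10 were among the 18350 genes that passed the filter on low counts. The question was how the positive limb stood against the 8 repressors and outputs in each group, as a reading of the time at which the tissue was collected.

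The study asked what the loss of RGS4, a protein that limits G-protein signalling, does in a chronic pain model. There were 4 groups of 4 libraries, labelled RGS4 KO with CFA, WT with CFA, RGS4 KO naive and WT naive. CFA is not spelled out in the labels; in pain research the letters usually mean complete Freund's adjuvant, which is injected to cause a lasting inflammation. The series describes mice with a floxed RGS4 gene that were given Cre recombinase by an adeno-associated virus in the ventral posterolateral thalamus, while the sample labels name only KO or WT. Whether the WT mice carried the floxed gene or received a virus is not given in the sources used here, nor are strain, age, the promoter behind Cre, the site of CFA and the time after it. All sample labels state female sex, whereas male mice are named in the extraction protocol. Each library pooled 4 bilateral punches of 12 gauge from 2 mice, so the p-values measure the spread between such pools.

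No hour of collection is given in the labels. The time of day and the treatment or genotype of a group therefore cannot be told apart in any comparison. In bulk tissue, fewer cells of a type and less RNA per cell cannot be told apart either.

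Library totals ran from 18.1 to 78.8 M counts, with group means of 46.2 M in RGS4 KO CFA, 48.1 M in WT CFA, 28.5 M in RGS4 KO naive and 42.9 M in WT naive libraries. Rgs4 itself averaged 84.1 ± 5.5 CPM, a gene's count scaled to a common library total, in RGS4 KO CFA and 89.3 ± 6.66 CPM in WT CFA libraries (SD, n = 4 each). It averaged 81.3 ± 2.74 CPM in RGS4 KO naive and 80.9 ± 3.66 CPM in WT naive libraries, and the libraries of each pair overlapped. The libraries are therefore called labelled RGS4 KO, and whether the counted exons include the deleted part is not given in the sources used here. Of 8 thalamic relay markers, Gbx2 was at most 0.242 CPM in any library, and it was the 1 under 0.5 CPM in every library. Slc17a6 lay between 431.6 and 535.1 CPM and Tcf7l2 between 109.5 and 179.1 CPM. The serotonin neuron gene Tph2 was present in all 16 libraries, from 58.9 to 646.2 CPM, and was lowest in WT CFA library 10 and in RGS4 KO naive libraries 5 and 8. Of 8 markers of suprachiasmatic and hypothalamic neurons, Avp, Six6, Prok2, Nms, Oxt and Hcrt were under 0.5 CPM in every library. The others were present, Vip from 10.2 to 58.9 CPM and Pomc from 1.19 to 4.94 CPM.

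The mammalian clock is a feedback loop that runs in most cells. ARNTL (BMAL1) pairs with CLOCK or its relative NPAS2 and binds E-boxes near the Per, Cry, Nr1d1, Nr1d2, Dbp, Tef and Ciart genes, whose products include the repressors of the loop. The REV-ERB proteins made from Nr1d1 and Nr1d2 bind ROR elements and repress Arntl and Npas2, while DBP and TEF activate genes with D-boxes, so transcripts of the positive limb peak at about the opposite phase of the day to those of the repressors and outputs.

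Promoter windows are shown for 6 genes on which the results turn, or which hold the elements of this loop, so that the letters can be set beside the levels. The sequences are from RefSeq on GRCm38.p6 and run from 250 bases before to 50 bases after a transcription start, 5′ to 3′ on the gene's strand. Capitals mark the E-box CACGTG, the D-box TTATGTAA or TTACGTAA, and the ROR element core TAGGTCA, each searched on both strands. They lie at chr7:113207261-113207560 for Arntl (plus strand, the second of its start sites), chr1:39194022-39194321 for Npas2 (plus), chr11:69098699-69098998 for Per1 (plus, the first of its start sites), chr4:151044616-151044915 for Per3 (minus), chr7:45704997-45705296 for Dbp (plus) and chr3:95882179-95882478 for Ciart (minus).
Arntl: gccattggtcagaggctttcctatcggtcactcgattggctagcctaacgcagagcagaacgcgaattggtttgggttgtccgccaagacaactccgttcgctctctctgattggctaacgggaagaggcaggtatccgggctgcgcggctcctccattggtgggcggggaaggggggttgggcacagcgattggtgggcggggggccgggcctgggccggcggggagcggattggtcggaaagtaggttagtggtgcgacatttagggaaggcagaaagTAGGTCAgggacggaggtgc
Npas2: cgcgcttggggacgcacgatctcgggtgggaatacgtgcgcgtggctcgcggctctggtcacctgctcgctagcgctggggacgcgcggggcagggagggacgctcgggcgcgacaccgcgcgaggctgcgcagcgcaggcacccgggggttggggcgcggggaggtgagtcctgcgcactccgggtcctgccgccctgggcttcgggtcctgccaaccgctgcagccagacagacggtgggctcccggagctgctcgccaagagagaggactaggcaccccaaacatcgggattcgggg
Per1: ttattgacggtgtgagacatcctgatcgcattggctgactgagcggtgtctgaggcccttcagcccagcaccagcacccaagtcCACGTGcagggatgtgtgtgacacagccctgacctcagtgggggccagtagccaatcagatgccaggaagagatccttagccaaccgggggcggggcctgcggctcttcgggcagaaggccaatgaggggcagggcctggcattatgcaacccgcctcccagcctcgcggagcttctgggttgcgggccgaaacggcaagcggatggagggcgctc
Per3: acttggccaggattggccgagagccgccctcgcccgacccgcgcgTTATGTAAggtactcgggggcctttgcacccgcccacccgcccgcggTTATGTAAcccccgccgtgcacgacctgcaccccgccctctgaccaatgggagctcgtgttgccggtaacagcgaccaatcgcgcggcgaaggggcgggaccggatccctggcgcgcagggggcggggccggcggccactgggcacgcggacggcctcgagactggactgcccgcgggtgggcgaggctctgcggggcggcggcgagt
Dbp: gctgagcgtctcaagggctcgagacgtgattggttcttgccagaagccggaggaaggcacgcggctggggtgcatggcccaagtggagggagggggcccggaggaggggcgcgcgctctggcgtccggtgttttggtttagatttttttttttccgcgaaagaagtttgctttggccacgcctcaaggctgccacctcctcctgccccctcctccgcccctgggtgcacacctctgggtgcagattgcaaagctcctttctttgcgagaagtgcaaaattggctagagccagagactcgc
Ciart: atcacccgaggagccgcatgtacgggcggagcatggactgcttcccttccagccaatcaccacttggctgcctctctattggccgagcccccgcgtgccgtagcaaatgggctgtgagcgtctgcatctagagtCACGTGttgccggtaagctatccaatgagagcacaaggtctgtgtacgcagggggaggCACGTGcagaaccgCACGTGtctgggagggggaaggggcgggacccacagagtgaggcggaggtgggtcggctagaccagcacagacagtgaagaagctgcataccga

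The Arntl window held 1 ROR element core, 31 bases after the start, and such a core was present in 2.61% of all 32851 promoter windows. The Ciart window held 3 E-boxes, beginning 116, 58 and 44 bases before its start, and the Per1 window held 1, beginning 166 bases before. An E-box was present in 7.15% of all windows, and in 4 of the 12 windows that RefSeq gives for 9 of the 10 genes; the other 2 were those of Tef. The Per3 window held 2 D-boxes, 205 and 158 bases before its start, an element found in 1.06% of all windows. The D-box and the ROR element core were each in 1 of those 12 windows. None of the 3 motifs was in the Npas2 and Dbp windows shown, or in the Arntl and Per1 windows that are not shown. The further motif CACGTT, an E-box variant, was in 4.68% of all windows and, among the clock genes, in that of Nr1d1. A match is a description of these letters and not a measured binding site. No window was used for Per2.

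Set on a scale per length, as CPM per kilobase of merged exons, the mean over 16 libraries was highest for Tef at 39.7 ± 2.01 (SD over the libraries). It was 27.8 ± 1.35 for Nr1d2 and 23.2 ± 1.28 for Nr1d1. The next were Dbp at 11.1 ± 1.52, Per1 at 8.53 ± 1.51 and Per3 at 6.95 ± 0.764. Per2 at 5.84 ± 0.498, Ciart at 4.68 ± 0.491, Arntl at 3.05 ± 0.2 and Npas2 at 1.61 ± 0.298 completed the order. The repressors and outputs thus all stood above the positive limb per length in this tissue. The ranges of 1 SD around the means overlapped for Dbp and Per1, for Per1 and Per3, and for Per3 and Per2. The range over the 16 libraries was widest for Per1, whose highest CPM was 1.79 times its lowest, and narrowest for Nr1d2 at 1.18 times.

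In the libraries with CFA the positive limb was higher and Dbp was lower than in naive libraries. Averaged over both genotypes, Npas2 was 1.4-fold and Arntl 1.1-fold as high with CFA as in naive libraries, and Dbp was at 0.813 of its naive level. These were the 3 of 10 clock genes that passed the test for the average CFA effect, which called 1.81% of all genes tested (edgeR, adjusted p under 0.05). The other 7 genes had values below 0 on the log2 scale, from -0.31 for Per1 to -0.03 for Nr1d1 and Tef, and none of them passed the test by edgeR. The median log2 difference was -0.13 over the 8 repressors and outputs, against -0.0025 over all genes tested.

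**Figure D1:**
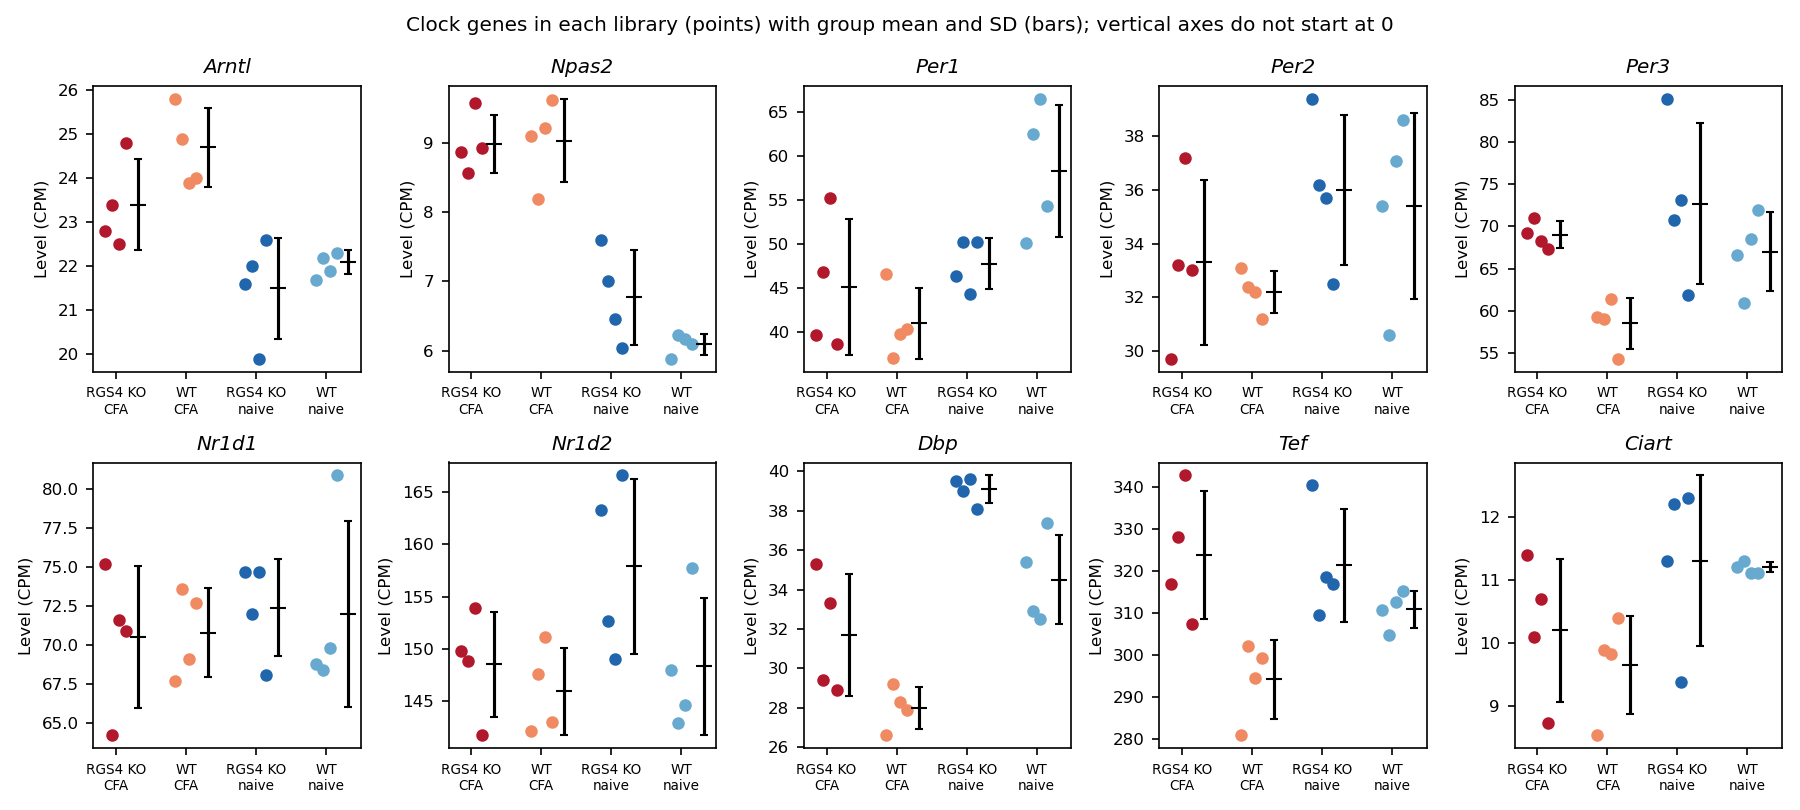
Level in CPM (vertical axes, not starting at 0) of each clock gene in each library (points), with the group mean and SD (bars), for RGS4 KO CFA, WT CFA, RGS4 KO naive and WT naive. Npas2 lay between 8.2 and 9.62 CPM in the CFA libraries and between 5.88 and 7.6 CPM in the naive ones; Nr1d1 overlapped throughout.

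Npas2 (ENSMUSG00000026077.9, chr1:39193731-39363236, plus strand) encodes the partner of ARNTL that can stand in for CLOCK, in the mouse mainly in the forebrain. Its levels were 8.87, 8.57, 9.58 and 8.93 CPM in RGS4 KO CFA libraries 13 to 16, against 7.6, 7.01, 6.46 and 6.03 CPM in RGS4 KO naive libraries 5 to 8. In WT CFA libraries 9 to 12 they were 9.11, 8.2, 9.22 and 9.62 CPM, against 5.88, 6.23, 6.17 and 6.09 CPM in WT naive libraries 1 to 4. All 8 CFA libraries were above all 8 naive libraries. The log2 difference was 0.40 ± 0.08 (SE) within RGS4 KO (edgeR adjusted p = 0.0297) and 0.57 ± 0.07 within WT (adjusted p = 0.000327). Averaged over the genotypes it was 0.48 ± 0.05 (adjusted p = 4.71e-05), and it was called under all 22 alternatives tried, with a largest adjusted p of 0.0182. The call within RGS4 KO was lost without library 6, 7 or 8 of the RGS4 KO naive group (adjusted p of 0.0935, 0.0774 and 0.112) and without library 13, 15 or 16 of the RGS4 KO CFA group (0.0808, 0.0978 and 0.0926).

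Arntl (ENSMUSG00000055116.7, chr7:113207465-113314126, plus strand), the obligate member of the activating pair, differed less. It had 22.8, 23.4, 22.5 and 24.8 CPM in RGS4 KO CFA libraries, against 21.6, 22, 19.9 and 22.6 CPM in RGS4 KO naive libraries. It had 25.8, 24.9, 23.9 and 24 CPM in WT CFA libraries, against 21.7, 22.2, 21.9 and 22.3 CPM in WT naive libraries. The WT groups did not overlap, while in the RGS4 KO groups library 15 with CFA, at 22.5 CPM, was below naive library 8, at 22.6 CPM. The average CFA difference was 0.14 ± 0.03 on the log2 scale (adjusted p = 0.0256), with 0.12 ± 0.05 in RGS4 KO (adjusted p = 0.501) and 0.16 ± 0.04 in WT (adjusted p = 0.0543), neither of them called by edgeR. DESeq2 called Arntl in WT (0.16, adjusted p = 0.0232), and edgeR did so in a fit of the WT groups alone (0.0488) and without RGS4 KO naive library 7 (0.0417) or 8 (0.0359). The average call was lost without library 3 (WT naive, adjusted p = 0.052), 9 (WT CFA, 0.0584) or 16 (RGS4 KO CFA, 0.0606).

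Dbp (ENSMUSG00000059824.4, chr7:45705088-45710203, plus strand) encodes a D-box activator whose transcript follows ARNTL activity closely in most tissues. Its levels were 35.3, 29.4, 33.3 and 28.9 CPM in RGS4 KO CFA libraries, against 39.5, 39, 39.6 and 38.1 CPM in RGS4 KO naive libraries. In WT CFA libraries they were 26.6, 29.2, 28.3 and 27.9 CPM, against 35.4, 32.9, 32.5 and 37.4 CPM in WT naive libraries. Within each genotype every CFA library was below every naive one. Dbp fell by 0.30 on the log2 scale both in RGS4 KO (SE 0.06, adjusted p = 0.0359) and in WT (SE 0.06, adjusted p = 0.00971), and the interaction was 0.00 ± 0.08, with a 95% interval of -0.17 to 0.17. The call within RGS4 KO was lost without any 1 of libraries 1, 5, 6, 7, 8, 11, 12, 14, 15 and 16, with adjusted p-values from 0.0515 without library 1 to 0.181 without library 16. The average call (adjusted p = 0.000316) was kept without each single library. Dbp overlaps Sphk2 on the other strand by 737 bases, and Sphk2 averaged 27.9 CPM. The kit does not mark strand, so some reads there may not be assigned with certainty. Overlaps here and below are of whole gene spans, and exons were not compared.

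Per1 (ENSMUSG00000020893.11, chr11:69095217-69109960, plus strand), a period repressor that also responds acutely to neuronal activity and to glucocorticoids, was called by edgeR within WT, and not within RGS4 KO or on average. It had 39.7, 46.8, 55.3 and 38.7 CPM in RGS4 KO CFA libraries, against 46.4, 50.2, 44.3 and 50.3 CPM in RGS4 KO naive libraries. It had 46.6, 37.1, 39.8 and 40.4 CPM in WT CFA libraries, against 50.1, 62.5, 66.5 and 54.3 CPM in WT naive libraries. The WT groups did not overlap, and the RGS4 KO groups did. Per1 fell by 0.51 on the log2 scale in WT (SE 0.12, edgeR adjusted p = 0.0363), and its difference was -0.10 ± 0.12 in RGS4 KO (adjusted p = 0.905). The test of the difference between the genotypes gave 0.42 ± 0.17 (edgeR adjusted p = 0.433), so they were not shown to differ. The average difference was -0.31 on the log2 scale (edgeR adjusted p = 0.0868); DESeq2 called it (-0.30, adjusted p = 0.00371), as did edgeR without RGS4 KO CFA library 15 (-0.36, adjusted p = 0.0232). The WT call was lost without library 2, 3 or 4 of WT naive (adjusted p of 0.103, 0.11 and 0.0532) and without library 10, 11 or 12 of WT CFA (0.0981, 0.0989 and 0.0837).

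The other period genes were not called. Per2 (ENSMUSG00000055866.8, chr1:91415982-91459324, minus strand) averaged 33.3 ± 3.07 CPM in RGS4 KO CFA and 32.2 ± 0.79 CPM in WT CFA libraries, against 36 ± 2.8 CPM in RGS4 KO naive and 35.4 ± 3.47 CPM in WT naive libraries (SD, n = 4 each). Its log2 difference with CFA was -0.12 in RGS4 KO and -0.14 in WT, with overlap in both. Per3 (ENSMUSG00000028957.6, chr4:151003652-151044665, minus strand), the period member least needed for the rhythm in mice, had log2 differences of -0.08 in RGS4 KO and -0.19 in WT (adjusted p of 0.856 and 0.178). Per3 lies within the span of Camta1 on the same strand, which averaged 632 CPM. Whether their exons overlap was not examined, so some reads there may not be assigned with certainty.

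The REV-ERB genes were nearly level. Nr1d1 (ENSMUSG00000020889.11, chr11:98767932-98775333, minus strand) averaged 70.5 ± 4.57 CPM in RGS4 KO CFA and 70.8 ± 2.84 CPM in WT CFA libraries, against 72.4 ± 3.12 CPM in RGS4 KO naive and 72 ± 5.96 CPM in WT naive libraries (SD, n = 4 each). Its average log2 difference with CFA was -0.03, with a 95% interval of -0.11 to 0.05, which does not reach the -0.30 of Dbp. Nr1d2 (ENSMUSG00000021775.10, chr14:18204054-18239127, minus strand) had -0.06, with an interval of -0.11 to 0. Nr1d1 overlaps Thra, at 470 CPM on average, by 1075 bases on the opposite strand, so some reads there may not be assigned with certainty.

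The remaining outputs were Tef and Ciart. Tef (ENSMUSG00000022389.8, chr15:81802421-81826863, plus strand), a D-box activator like DBP, had log2 differences with CFA of 0.01 in RGS4 KO and -0.08 in WT (adjusted p of 0.986 and 0.253). Ciart (ENSMUSG00000038550.4, chr3:95878503-95882251, minus strand), a repressor of the ARNTL and CLOCK pair, had 11.4, 10.1, 10.7 and 8.73 CPM in RGS4 KO CFA libraries, against 11.3, 12.2, 9.38 and 12.3 CPM in RGS4 KO naive libraries. It had 8.54, 9.89, 9.82 and 10.4 CPM in WT CFA libraries, against 11.2, 11.3, 11.1 and 11.1 CPM in WT naive libraries. The WT groups did not overlap and the RGS4 KO groups did, and the log2 differences of -0.14 and -0.21 were not called (adjusted p of 0.73 and 0.199). Ciart overlaps C920021L13Rik on the opposite strand by 3749 bases, its whole span, so some reads there may not be assigned with certainty. C920021L13Rik averaged 1.68 CPM.

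By comparison, CFA within RGS4 KO gave 2 called clock genes of 10 (Npas2 higher and Dbp lower), where 0.185% of all genes were called. CFA within WT gave 3 (Npas2 higher, Per1 and Dbp lower), where 2.23% were called. All 8 repressors and outputs had a negative value in WT and 7 of 8 in RGS4 KO, with medians of -0.09 in RGS4 KO and -0.17 in WT, beside all-gene medians of -0.0021 and -0.0012. The interaction called 0 of the 10 genes by edgeR (0.0654% of all genes), 1 of them at an unadjusted p under 0.05, which was Per1, and DESeq2 called 0 as well. Counts at an unadjusted p, here and below, lack the share of all genes at that threshold, so no excess can be read from them.

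**Figure D2:**
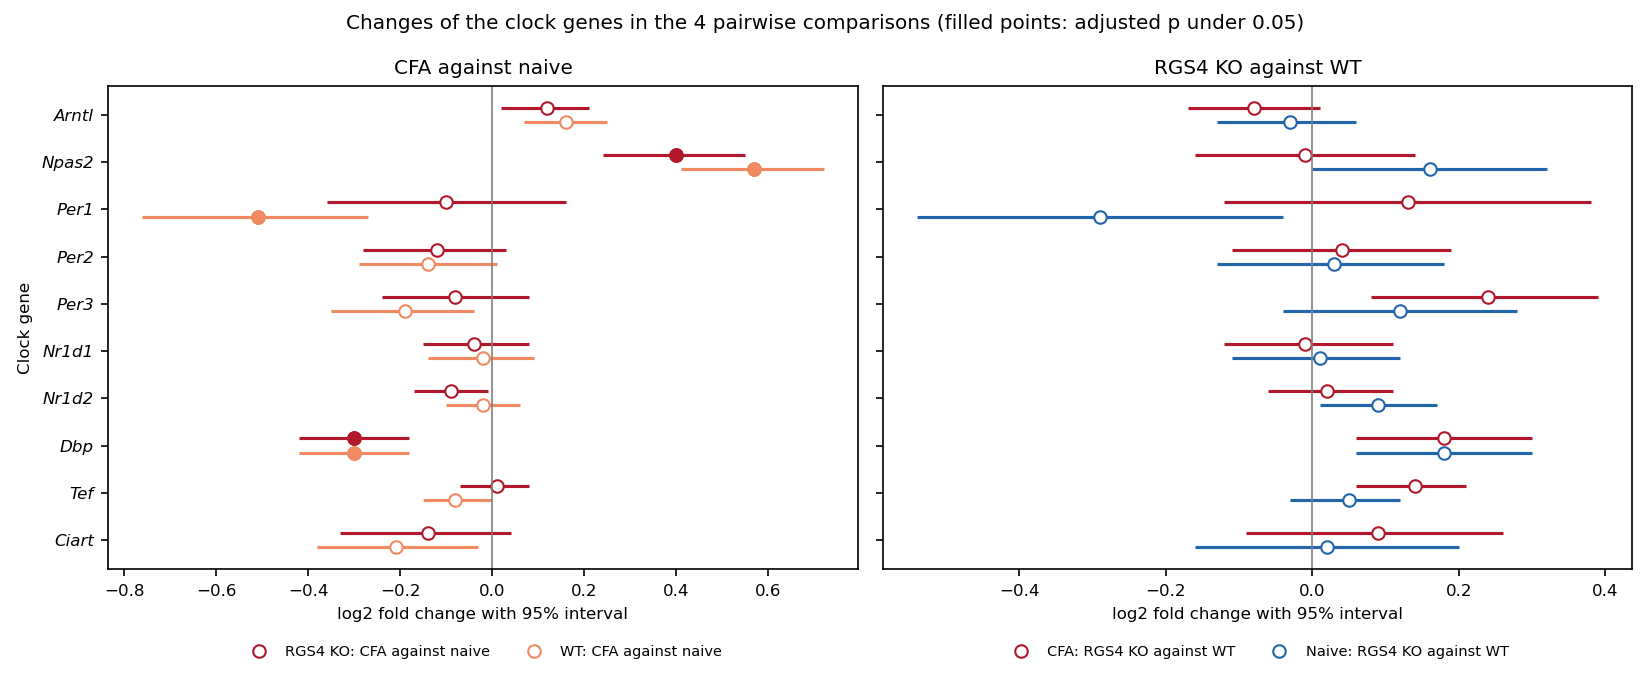
log2 fold change (horizontal axes, points) with its 95% interval (lines) of each clock gene for CFA against naive (left) and RGS4 KO against WT (right), filled where the edgeR adjusted p was under 0.05. Npas2 lay at 0.40 and 0.57 and Dbp at -0.30 in both genotypes on the left, and no point on the right was filled.

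Between the genotypes none of the 10 clock genes was called by edgeR at either condition. Among naive libraries edgeR called 0 of 10, where 1.45% of all genes were called, with 3 at an unadjusted p under 0.05 and 0 by DESeq2. Among CFA libraries it called 0 of 10, where 1.6% of all genes were called, with 3 at an unadjusted p under 0.05 and 1, Tef, by DESeq2 (adjusted p = 0.0206). The shares of 1.45% and 1.6% are for adjusted p and are no background for the unadjusted counts. Averaged over the conditions, edgeR called Dbp and Tef, both higher in libraries labelled RGS4 KO, where 3.73% of all genes were called. DESeq2 called Per3 as well (0.18, adjusted p = 0.02).

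Dbp averaged 31.7 ± 3.11 CPM in RGS4 KO CFA and 28 ± 1.06 CPM in WT CFA libraries, and 39.1 ± 0.693 CPM in RGS4 KO naive and 34.5 ± 2.27 CPM in WT naive libraries (SD, n = 4 each). The naive groups did not overlap, and the CFA groups did. The average genotype difference was 0.18 ± 0.04 on the log2 scale (adjusted p = 0.0135), with 0.18 ± 0.06 at each condition. This call was kept without each single library. It was not kept without libraries 5, 8 and 10 together (0.20, adjusted p = 0.0666) or after thinning to the shallowest library (0.18, adjusted p = 0.0541).

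Tef had 316.8, 328.1, 342.7 and 307.3 CPM in RGS4 KO CFA libraries, against 280.8, 302.1, 294.5 and 299.2 CPM in WT CFA libraries. It had 340.5, 309.4, 318.4 and 316.8 CPM in RGS4 KO naive libraries, against 310.6, 304.7, 312.6 and 315.3 CPM in WT naive libraries. The CFA groups did not overlap, and the naive groups did. The average difference was 0.09 ± 0.03 (adjusted p = 0.0442), and 0.14 ± 0.04 with CFA (adjusted p = 0.0582). The average call was lost without any 1 of the libraries other than 6, 8, 10 and 16, with adjusted p-values from 0.0527 without library 13 to 0.102 without library 5. The call with CFA was gained without library 5, 8 or 16 (0.0378, 0.046 and 0.0365).

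Per3 had 69.2, 71, 68.3 and 67.3 CPM in RGS4 KO CFA libraries, against 59.3, 59, 61.4 and 54.3 CPM in WT CFA libraries, with no overlap. Its difference was 0.24 ± 0.07 on the log2 scale (adjusted p = 0.151), and it passed the threshold without library 5 (0.0254) or 8 (0.0357) of the RGS4 KO naive group, or in a fit of the CFA groups alone (0.00559). In naive libraries Per3 had 85.1, 70.7, 73.1 and 61.9 CPM in RGS4 KO, against 66.6, 60.9, 68.5 and 72 CPM in WT, and these overlapped.

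Putting the limbs together, the mean log2 deviation of each gene from its own 16-library mean was taken over Arntl and Npas2 and over the 8 repressors and outputs. The second minus the first was -0.16 ± 0.09 in RGS4 KO CFA, -0.30 ± 0.06 in WT CFA, 0.21 ± 0.03 in RGS4 KO naive and 0.24 ± 0.06 in WT naive libraries (SD, n = 4 each). It ran from -0.29 to -0.08 and from -0.36 to -0.23 in the CFA groups, and from 0.18 to 0.25 and from 0.17 to 0.30 in the naive groups. Every CFA library was thus below 0 and every naive library above it. The genotypes overlapped within naive and within CFA libraries. As the positive limb is a mean over 2 genes, Npas2 and Arntl each weigh more than any 1 of the 8 others. With CFA on average Npas2 differed by 0.48 and Arntl by 0.14. The 8 others ran from -0.31 for Per1 to -0.03 for Nr1d1 and Tef, so the members did not shift evenly. The score is a description, and no p-value is given for it.

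**Figure D3:**
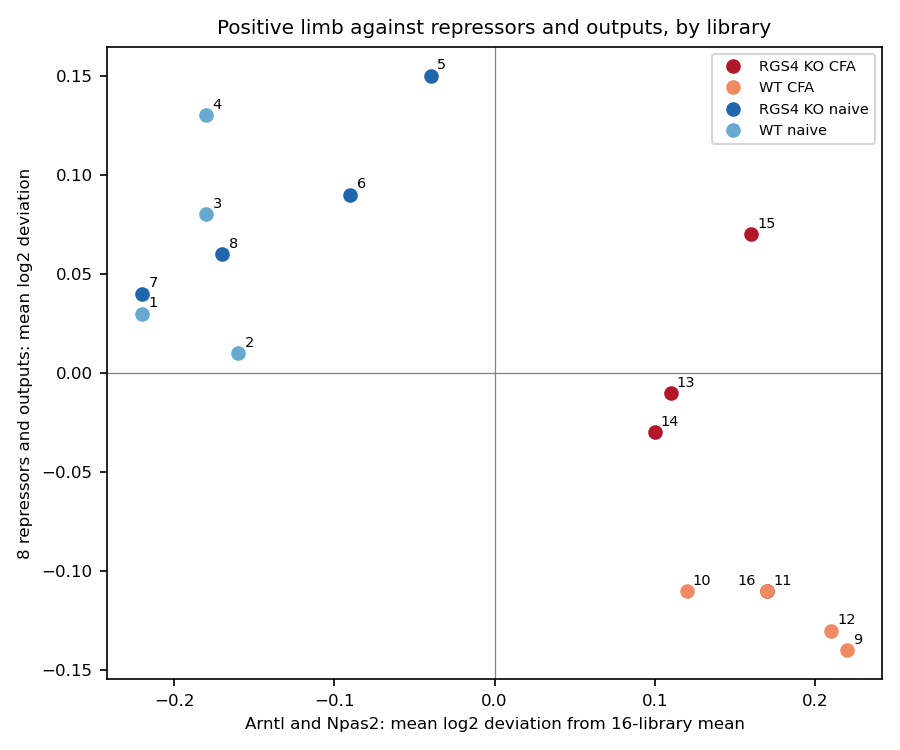
Each point is a library, numbered, with the mean log2 deviation of Arntl and Npas2 on the horizontal axis and that of the 8 repressors and outputs on the vertical axis. All 8 CFA libraries lie right of 0, between 0.10 and 0.22, and all 8 naive libraries left of it, between -0.22 and -0.04; libraries 11 and 16 share a position.

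The positive limb averaged 0.14 ± 0.03 in RGS4 KO CFA, 0.18 ± 0.04 in WT CFA, -0.13 ± 0.08 in RGS4 KO naive and -0.18 ± 0.02 in WT naive libraries. The repressors and outputs averaged -0.02 ± 0.08 in RGS4 KO CFA, -0.12 ± 0.02 in WT CFA, 0.08 ± 0.05 in RGS4 KO naive and 0.06 ± 0.05 in WT naive libraries. Library 15 of the RGS4 KO CFA group was high for both, at 0.16 for the positive limb and 0.07 for the repressors and outputs. Within a library, the log2 ratio of Npas2 to Dbp CPM averaged -1.81 ± 0.13 in RGS4 KO CFA and -1.63 ± 0.14 in WT CFA, against -2.53 ± 0.13 in RGS4 KO naive and -2.50 ± 0.12 in WT naive libraries (SD, n = 4 each).

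**Figure D4:**
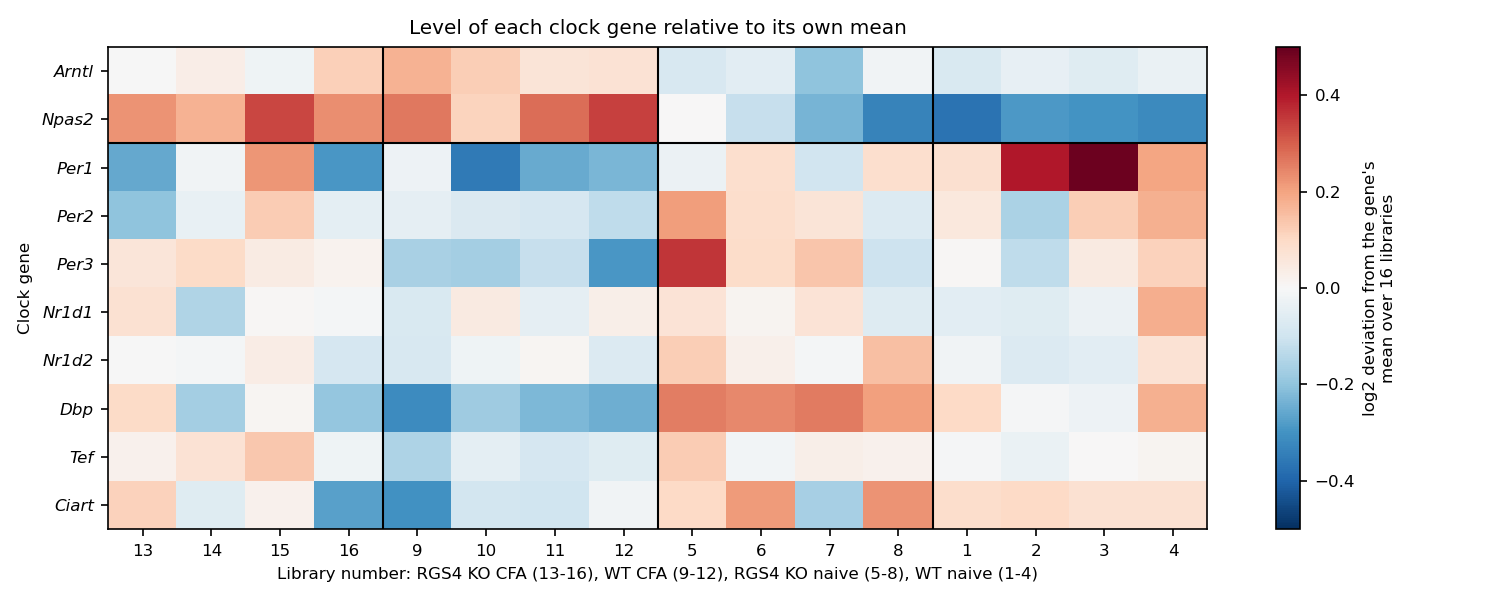
Colour gives the log2 deviation of each clock gene (rows) from its own mean over the 16 libraries (columns, by group), red above and blue below, on a scale from -0.5 to 0.5. The Npas2 row is above its mean in all 8 CFA libraries, while Per1 ranges from 37.1 CPM in library 10 to 66.5 CPM in library 3.

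Markers of other cells and regions also differed between the groups. Cartpt, a peptide gene of midbrain and other neurons, had 50.9 to 165.6 CPM in RGS4 KO CFA libraries, against 32.7 to 219.3 CPM in RGS4 KO naive libraries. In WT CFA libraries it had 227.7 to 302.6 CPM, against 14.3 to 54.4 CPM in WT naive libraries. Cartpt did not overlap between the WT groups (3.04 on the log2 scale, edgeR adjusted p = 0.024) and overlapped between the RGS4 KO groups. Ucn, the peptide gene urocortin, averaged 17.6 ± 2.61 CPM in WT CFA and 1.8 ± 1.48 CPM in WT naive libraries (SD, n = 4 each; 3.20, edgeR adjusted p = 0.0434). Leaving out single libraries ended the Cartpt call for 5 libraries (1, 2, 4, 11 and 12) and the Ucn call for 11. In WT, 5 of the 7 midbrain markers were above 0 and 2 below, from -1.06 to 3.20. Those below were the serotonin neuron genes Tph2, which averaged 231.3 CPM in WT CFA and 477.3 CPM in WT naive libraries, and Slc6a4, at 180.5 and 376.2 CPM, neither of them called. A sum over the list therefore adds values of opposite sign. The summed level of 7 midbrain markers ran from 617.8 to 987.7 CPM in RGS4 KO CFA and from 376.4 to 993.6 CPM in WT CFA libraries. It ran from 256.6 to 1055 CPM in RGS4 KO naive and from 547.1 to 1230 CPM in WT naive libraries, and none of the 7 was under 0.5 CPM in every library.

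Of the 7 thalamic relay markers tested, Cbln1 and Ntng1 were called higher with CFA in WT, where 2.23% of all genes were called. Cbln1, a secreted synapse organiser, averaged 17.4 ± 1.39 CPM in RGS4 KO CFA and 22.1 ± 1.89 CPM in RGS4 KO naive libraries, and 23.7 ± 3.57 CPM in WT CFA and 15.9 ± 1.65 CPM in WT naive libraries (SD, n = 4 each). Its CFA difference in WT was 0.58 on the log2 scale (edgeR adjusted p = 0.00737), and its interaction of genotype and CFA was -0.92 (adjusted p = 0.0217), a call lost without library 4, 6, 8, 13, 15 or 16. Cbln1 was also called between the genotypes, at -0.45 with CFA (adjusted p = 0.0282, lost without any of 4 libraries) and 0.47 in naive libraries (adjusted p = 0.0322, lost without any of 5). Ntng1, a netrin family member, differed by 0.21 with CFA in WT (adjusted p = 0.0105) and by 0.17 between naive RGS4 KO and naive WT libraries (adjusted p = 0.0359, lost without any of 7 libraries). Prkcd, a protein kinase, was called for the average CFA difference (0.28, adjusted p = 0.0255), but not without library 6 or 16. Of 6 brain endothelium markers, Slc2a1 was called higher with CFA on average (0.18, edgeR adjusted p = 0.0132), and 1 of 22 alternatives lost this call. In that comparison 5 of the 6 were above 0 and 1 below. All 6 oligodendrocyte markers were above 0 with CFA in WT (median 0.23) and below 0 in RGS4 KO (median -0.19), with 0 called. Of 6 astrocyte and 6 microglia markers, 0 were called with CFA. The part of these neuron, glia and endothelium markers in the clock gene values was not tested.

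With scores of serotonin and of Cartpt and Ucn markers as covariates, added after the data were seen, the average CFA difference was 0.58 for Npas2 (adjusted p = 0.0182) and -0.19 for Dbp (0.324). Within WT that fit called 0 genes of any kind, and gave 0.81 for Npas2 (adjusted p = 0.488) and -0.09 for Dbp (0.974). Cartpt did not overlap between the WT groups, so this fit cannot separate the marker scores from CFA in WT. The average difference includes WT and shares this limit. Without libraries 5, 8 and 10, those lowest in Tph2, the average difference was 0.51 for Npas2 (adjusted p = 8.54e-05) and -0.31 for Dbp (0.0053). The average Arntl call was lost with the marker scores (0.13, adjusted p = 0.531), without those 3 libraries (0.16, 0.0544) and after thinning to the shallowest library (0.13, 0.156).

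The wider clock list held 21 other genes, all tested. With CFA on average, 1 was called, lower, and 0 higher, where 1.81% of all genes were called. It was Rorb, a nuclear receptor that activates genes with ROR elements, at 16.6 ± 1.58 CPM in RGS4 KO CFA and 18.1 ± 1.19 CPM in WT CFA libraries, against 20 ± 0.954 CPM in RGS4 KO naive and 19.6 ± 0.722 CPM in WT naive libraries (log2 difference -0.19 ± 0.04, adjusted p = 0.0305). Clock, the main partner of ARNTL, was the 1 called within WT, at 116.1 ± 1.57 CPM with CFA against 105.9 ± 3.07 CPM in naive libraries (0.13 ± 0.03, adjusted p = 0.0388). The Rorb call was lost without any 1 of libraries 1, 3, 4, 5, 6, 9, 10, 13 or 16 (adjusted p of 0.0511 to 0.0666), and the Clock call without 1, 2, 3, 4, 9, 10, 11 or 12 (0.0536 to 0.115). Within RGS4 KO 0 of 21 were called by edgeR, 4 of them at an unadjusted p under 0.05. The shares of all genes called by edgeR were 2.23% within WT and 0.185% within RGS4 KO. Cry1 and Cry2, the partners of the period proteins, had average differences of -0.11 and -0.05 and were not called. The median over the 21 genes was -0.01 for the average CFA effect, beside -0.0025 over all genes.

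Between the genotypes, Arntl2, a relative of Arntl, was lower in libraries labelled RGS4 KO on average (-0.45 ± 0.07, adjusted p = 0.000646). It had 7.19 ± 0.524 CPM in RGS4 KO CFA and 8.97 ± 1.14 CPM in WT CFA libraries, and 6.53 ± 0.465 CPM in RGS4 KO naive and 9.84 ± 1.37 CPM in WT naive libraries. Among naive libraries alone the Arntl2 difference was -0.60 (edgeR adjusted p = 0.00456), a call lost in 2 of 23 alternatives. Bhlhe41, an E-box repressor, was higher on average (0.17 ± 0.04, adjusted p = 0.00814), and its relative Bhlhe40 was higher among naive libraries (0.17 ± 0.04, adjusted p = 0.0385). The Bhlhe40 call was lost without library 1, 2, 3, 4, 5, 6, 8 or 16 (adjusted p of 0.0508 to 0.126), while those of Arntl2 and Bhlhe41 on average were kept without each single library. These were the called genes among the 21, with 1 higher and 1 lower in each of the average and naive comparisons and 0 called among CFA libraries (3 at an unadjusted p under 0.05, edgeR). Of all genes, edgeR called 3.73% on average, 1.45% among naive libraries and 1.6% among CFA libraries.

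Per1 is also a target of stress hormones and of neuronal activity, so lists of such genes are given beside it. Of 12 glucocorticoid responsive genes, 3 were higher and 0 lower with CFA on average: Fkbp5 (0.51 ± 0.08, adjusted p = 0.00379), Cdkn1a (1.01 ± 0.15, 0.00418) and Angptl4 (0.28 ± 0.07, 0.048). Of all genes, 1.81% were called in this comparison. Fkbp5, a chaperone partner that glucocorticoids induce, had 33.5, 36.8, 37.7 and 36.7 CPM in RGS4 KO CFA libraries, against 25.7, 27.7, 26.7 and 23.1 CPM in RGS4 KO naive libraries. It had 46.5, 35.6, 30.8 and 38.6 CPM in WT CFA libraries, against 24.4, 23.8, 30.8 and 24.8 CPM in WT naive libraries. Of the 12 genes, 10 were above 0 and 2 below on average, and 9 above and 3 below in WT. Those below in WT, where Per1 was called lower, were Sgk1, Pdk4 and Ddit4, none of them called. Of 13 immediate early genes, 4 were lower and 0 higher with CFA on average, namely Fos (-0.87 ± 0.16, adjusted p = 0.0185), Egr1 (-0.49 ± 0.10, 0.0348), Junb (-0.47 ± 0.11, 0.048) and Egr4 (-0.44 ± 0.11, 0.0476). The share over all genes was again 1.81%. The average calls of Fkbp5, Cdkn1a and Fos were kept without each single library. That of Angptl4 was lost without library 1, 2, 3, 5, 6, 7, 8, 9, 10, 11, 12, 13, 14, 15 or 16 (adjusted p up to 0.101), and that of Egr1 without 2, 3, 4, 6, 9, 11, 12, 13, 14 or 16 (up to 0.0751). Junb lost its call without 2, 3, 4, 5, 6, 7, 8, 9, 10, 11, 12, 13, 14 or 16 (up to 0.101) and Egr4 without 3, 4, 6, 7, 8, 9, 10, 11, 12, 13, 14, 15 or 16 (up to 0.107). With CFA on average the medians were 0.14 over the glucocorticoid list and -0.20 over the immediate early list. Between the genotypes on average, all 12 glucocorticoid genes were lower in RGS4 KO, and edgeR called 3, where 3.73% of all genes were called. They were Angptl4 (-0.40, adjusted p = 0.0018), Mt1 (-0.15, 0.0193) and Pdk4 (-0.38, 0.0421), and 17 of 22 alternatives lost the Pdk4 call. Among naive libraries 12 of 13 immediate early genes were lower in RGS4 KO, with 0 called, and among CFA libraries 8 were. Per1 itself differed between the genotypes by -0.29 among naive and by 0.13 among CFA libraries (edgeR adjusted p of 0.293 and 0.743). The part of hormones, activity and hour in the Per1 values was not tested.

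Among 15020 genes whose mean level reached 1 CPM, the 5 whose log2 CPM followed the score most closely in the same direction across the 16 libraries were Pipox (r = 0.92), Rsrp1 (0.92), Rfx4 (0.90), Cdc42ep4 (0.89) and Pprc1 (0.88). The 5 that ran most against it were Hr (-0.95), Trim9 (-0.93), Htra1 (-0.93), Id2 (-0.91) and Mfsd2a (-0.90). These values are descriptions, and the libraries fall into a CFA and a naive cluster that they share with the score. When deviations from the group means were used, the values were -0.07 for Rfx4, 0.50 for Cdc42ep4 and -0.23 for Hr, and none of the 10 remained among the 5 highest or 5 lowest. Hr, a nuclear receptor corepressor, averaged 55.3 CPM in CFA libraries and 36.3 CPM in naive libraries, and Id2, an inhibitor of helix-loop-helix factors, averaged 55.6 CPM in CFA libraries and 44.7 CPM in naive libraries.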

How the data were processed

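For each of the 16 libraries the authors deposited a table of raw gene counts, which are whole numbers without normalization. The build mm10 and the tools TopHat and DESeq2 are named in the submitters' processing notes. The tables end in 5 summary lines of the form HTSeq writes. Neither the annotation release nor the strand setting is stated. Per the labels' protocols, RNA came from TRIzol and libraries from a TruSeq kit, version 2. Reads on these summary lines, which were not assigned to a gene for any reason (38% to 39.9%), were left out. GENCODE M21 gave symbols for 37607 of 38924 IDs.

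The counts were tested with edgeR 4.0.16 (R 4.3.3), using filterByExpr at a minimum count of 10 (18350 genes, 99.961% of counts), TMM scaling, and a robust quasi-likelihood fit of 1 mean per group over all 16 libraries. P-values are two-sided and Benjamini-Hochberg adjusted over all genes tested, and those with no tool named are from this test. A gene was called under 0.05. The common coefficient of variation was 6.1%. CPM uses TMM-scaled totals, and log2 CPM for the score a prior count of 2. DESeq2 1.42.0, other scaling, filters, depths and fits, and leaving out each library were alternatives. The script was tested on simulated data. Named genes are the 10 clock genes, called members of the lists, a few others with the lowest p, and the 5 highest and lowest in likeness. Rgs4 and markers are named as checks. Members and lists were chosen with earlier results of these data known.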

Additional observations from a re-analysis of the deposited data

Results flagged for a closer look

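Nr1d1 in WT naive library 4 stood apart from the rest of its group, at 80.9 CPM against 68.4 to 69.8 CPM in the other 3 libraries. The gap to the nearest library was 0.891 of the range of the group, above the critical value of Dixon's test. It was the 1 such case in 44 groups of 4 examined, where chance gives about 1 in 20.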

How the results depend on the processing

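No paired analysis was possible because the library numbers run from 1 to 16 and no number is shared between groups. Of the values for single clock genes under the alternatives, 1432 kept their direction and side of the threshold, 58 lost and 20 gained a call, 70 uncalled values changed sign, and 0 called values changed sign. With CFA libraries, the genotype comparison called 1 clock gene with DESeq2 (Tef), 1 in a fit of those groups alone (Per3), 2 without libraries 5, 8 and 10 (Per3 and Tef), and 0 to 2 when each library was left out. The average genotype effect called 0 after thinning to 18.1 M counts, 1 without libraries 5, 8 and 10 (Per3), and 1 to 3 on leaving out each library. CFA within WT called 0 with the midbrain marker scores and 2 to 4 on leaving out each library. CFA within RGS4 KO called 0 in a fit of those groups alone, 1 after thinning (Dbp), 0 with the marker scores, 0 without libraries 5, 8 and 10, and 0 to 2 on leaving out each library. The Per1 call in WT was lost with no filter on low counts (adjusted p = 0.0633) and after thinning (0.052). The average CFA effect called 1 with the marker scores (Npas2) and 2 to 4 on leaving out each library. The marker scores and the 3-library exclusion were chosen after seeing the data. Over all genes, counts moved by more than 1.5 times as follows. DESeq2 called 456 (naive) and 449 (CFA) between genotypes, against 266 and 294 with edgeR, and for CFA 764 in WT, 87 in RGS4 KO and 567 on average, against 409, 34 and 332, and 86 for the interaction, against 12. The marker scores gave 33, 61, 0, 15 and 22 in the same order, and 0 for the interaction, for which 31 were called with no filter, 7 after thinning and 22 without libraries 5, 8 and 10. Thinning gave 186 for genotype with CFA, 218 for CFA in WT and 449 for the average genotype effect, against 685. Without libraries 5, 8 and 10 there were 78 for genotype in naive, 10 for CFA in RGS4 KO and 384 for the average genotype effect. On leaving out each library the counts ran from 135 to 296 (naive), 195 to 407 (CFA), 178 to 754 (CFA in WT), 16 to 42 (CFA in RGS4 KO), 204 to 493 (CFA average) and 5 to 27 (interaction). The cause was not tested, except that thinning and exclusion use fewer reads or samples.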
